A study of Mus musculus with 2 samples.

Results

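Club cells of the airway were taken from 2 droplet single-cell RNA libraries of sorted mouse lung epithelium. A cell was called where a barcode held at least 2000 UMIs (unique molecular identifiers, the tags that mark single captured RNA molecules) and at least 500 genes, with at most 20% of UMIs from mitochondrial genes. A called cell was taken as a club cell where Scgb1a1 made up at least 20% and Sftpc under 10% of its UMIs. By this rule 344 of 19152 called cells were club cells, 281 of 8165 in the tumor-bearing library and 63 of 10987 in the control library. Both libraries came from lungs of wild type C57BL/6 mice. The tumor-bearing library was made 14 days after 1000000 LLC cells, a mouse lung carcinoma line carrying luciferase, were placed under the skin of the back. The control library came from lung without a tumor or treatment. In both, CD45-, SftpC+ cells were sorted by flow cytometry, a gate meant for alveolar type 2 (AT2) cells, at a stated purity above 95%. The labels do not say whether more than 1 mouse entered a library. Each group had 1 library, so no test across mice was possible. All intervals below are exact at 95% and cover counting error only, and differences between the libraries describe those 2 libraries, not the conditions.

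Club cells are the secretory cells that line the conducting airways. They secrete uteroglobin (Scgb1a1) and related secretoglobins into the airway fluid, metabolise inhaled chemicals with cytochrome P450 enzymes such as Cyp2f2, and act as progenitors that renew themselves and give rise to ciliated cells. They lie next to ciliated, goblet and basal cells in the airway wall, whereas AT2 cells lie in the alveoli and secrete surfactant.

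Of 7 genes looked for, 6 had a start region in RefSeq, and 4 of these, on which the results below turn, are shown. The sequences are the 250 bases before the transcription start in RefSeq (GRCm38.p6, the build of mm10), 5′ to 3′ on the gene's strand, with 1 short motif match in capitals. In Cyp2f2 (chr7:27119705-27119954, plus strand) the capitals mark a match to the NKX2 family core CACTTG on the opposite strand, from 191 to 186 bases before the start. Bpifa1 (chr2:154142630-154142879, plus strand) holds TATTTAC, a match to the FOX family core TNTTTAC, from 127 to 121 bases before the start. Scgb3a1 (chr11:49663345-49663594, plus strand), with most of its club cell UMIs in the same few cells as those of Bpifa1, holds CACTTG from 174 to 169 bases before the start. Hspa1a (chr17:34972157-34972406, minus strand) holds GAAGATTC, a match to the heat shock element core GAANNTTC, from 104 to 97 bases before the start.
Cyp2f2: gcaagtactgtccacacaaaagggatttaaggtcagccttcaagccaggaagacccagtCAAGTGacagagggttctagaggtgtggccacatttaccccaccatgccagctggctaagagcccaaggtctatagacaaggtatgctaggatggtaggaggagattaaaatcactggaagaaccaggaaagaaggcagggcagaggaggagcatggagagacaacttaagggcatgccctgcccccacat
Bpifa1: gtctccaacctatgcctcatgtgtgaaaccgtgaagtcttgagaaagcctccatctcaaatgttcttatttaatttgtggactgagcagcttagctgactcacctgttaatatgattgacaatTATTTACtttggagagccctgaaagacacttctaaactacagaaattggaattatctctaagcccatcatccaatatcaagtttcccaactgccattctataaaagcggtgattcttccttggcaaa
Scgb3a1: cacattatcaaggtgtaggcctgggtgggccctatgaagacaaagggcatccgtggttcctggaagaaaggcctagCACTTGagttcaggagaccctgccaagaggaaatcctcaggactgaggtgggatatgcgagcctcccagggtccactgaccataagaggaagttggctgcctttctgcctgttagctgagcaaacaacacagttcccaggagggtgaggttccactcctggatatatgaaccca
Hspa1a: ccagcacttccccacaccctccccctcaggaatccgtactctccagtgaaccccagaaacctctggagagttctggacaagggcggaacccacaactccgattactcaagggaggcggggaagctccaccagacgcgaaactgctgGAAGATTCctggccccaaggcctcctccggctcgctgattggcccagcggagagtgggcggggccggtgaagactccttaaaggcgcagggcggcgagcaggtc
Both strands were searched. Of 32851 RefSeq start regions of the same length, 11.6% held CACTTG, 10.9% held TNTTTAC and 6.69% held GAANNTTC. A further heat shock pattern, TTCNNGAA, held by 7.17% of them, was also searched and had no match in the 4 genes shown. Matches in the genes not shown are not given, so the 4 shown give no rate of matches. A match is a description of the letters and not a site in use.

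The tumor-bearing and control libraries held 84448360 and 91498124 UMIs in all. Club cells were deeper than the other called cells of their library, with a median of 23502 UMIs (range 2354 to 62213) in tumor-bearing and 12402 (3056 to 29962) in control club cells. The medians of all other called cells were 8599.5 and 6862 UMIs. Scgb1a1 made up most of this difference: without it the medians were 9087 and 5545 UMIs in club cells, against 8549 and 6842 in other cells. Mitochondrial transcripts took a median of 1.74% and 1.64% of UMIs in club cells, and 3.01% and 3.36% in other cells. This direction turned with the totals. The median fold of mitochondrial genes over other cells was 0.637 and 0.544, and 1.55 and 1.25 with Scgb1a1 left out. Of the barcodes called in either library, 128 were called in both. Of tumor-bearing club cell barcodes 4 were also called in the control library, 2 of the control ones were called in the other, and no barcode was a club cell in both.

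Club cells were 3.44% (3.06 to 3.86) of called cells in the tumor-bearing library. In the control library they were 0.573% (0.441 to 0.733), which gives a ratio of 6.00 (4.55 to 8.02). The sort selected SftpC+ cells, so these are shares of a gate meant to hold AT2 cells, and a difference in sorting and a difference in the lung cannot be told apart. Scgb1a1 made up 11.4% of the UMIs of empty droplets (barcodes with 1 to 100 UMIs, which hold free RNA and no cell) of the tumor-bearing library, against 1.4% in the control library. Its median share in other called cells was 0.526% and 0.137%, far under the limit of 20%. Removing the 533 and 966 cells with the highest doublet scores, 35 and 0 of them club cells, gave a ratio of 5.13, and leaving out club cells with Sftpc at 2% or more gave 8.93. The cells counted as club cells stood clear of the limit on Scgb1a1, as its plot against Sftpc shows. The lowest share inside the rule was 22.8% in tumor-bearing and 22.5% in control cells, and the highest outside it, among cells within the Sftpc limit, was 18.9% and 19.4%. Between 20% and 25% lay 4 and 1 cells, and between 15% and 20% lay 4 and 4. The Sftpc limit was less clear: 27 and 5 club cells held 5% to 10% Sftpc, and a further 11 and 6 cells passed the Scgb1a1 limit with Sftpc at 10% or more. The highest Sftpc share inside the rule was 9.75% and 9.99%, and the lowest outside it 10.2% and 10.1%.

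**Figure D1:**
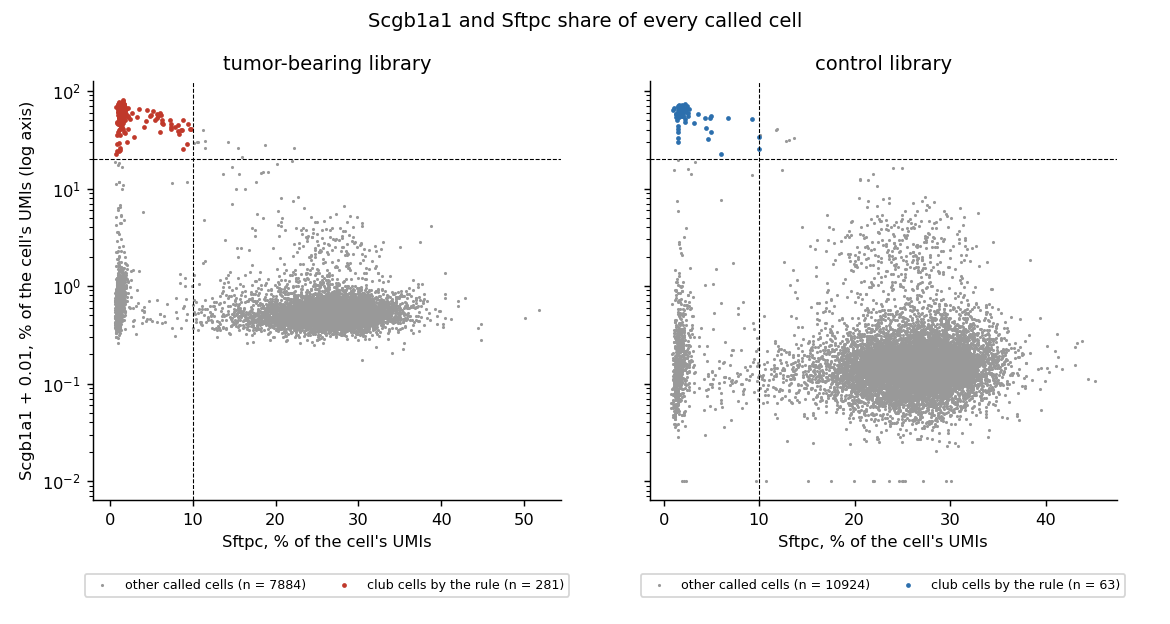
Scgb1a1 (y axis, % of UMIs plus 0.01, log axis) against Sftpc (x axis, % of UMIs) in every called cell, 1 point per cell, with dashed lines at the limits of 20% and 10%. The 281 and 63 club cells form a group at the upper left, and the body of other cells lies lower in the control library, where their median Scgb1a1 share was 0.137% against 0.526%.

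Scgb1a1, which the rule used, made up a median of 60.9% of the UMIs of a club cell in the tumor-bearing library (22.8% to 80.6%) and 57.2% (22.5% to 73.2%) in the control library. Sftpc, also used by the rule, had a median of 1.4% in tumor-bearing and 1.90% in control cells. These low shares were near those of cells in which ciliated markers made up at least 2% of UMIs (113 and 132 cells), where Sftpc had a median of 1.08% and 1.67%. The counts were further apart, as club cells were deeper and Scgb1a1 took most of their UMIs. A club cell held a median of 325 and 249 Sftpc UMIs, against 58 and 72 in a ciliated-marker cell. Empty droplets gave Sftpc as 18.8% and 23.3% of their UMIs. Most club cells, 239 of 281 and 36 of 63, had Sftpc under 2%. The 27 tumor-bearing club cells with Sftpc from 5% to 10% had a median of 28589 UMIs, and the 12 AT2 markers together made up a median of 10.1% of their UMIs, against 2.29% in club cells with Sftpc under 2%. Of these 27 cells, 14 were among the 35 removed for their doublet scores. Without the 27 and 5 cells at 5% or more the share ratio was 5.89, and between libraries 8 genes were higher and 11 lower, against the 6 and 6 given below for all club cells.

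Markers of other cells were low. Of the 12 AT2 markers, 10 were at or below 0.25 times their level in other cells in both libraries. Sftpc was among them, at 0.0895 and 0.101 times. Over all genes, 142 of 1723 (8.24%) were this low. These counts kept Scgb1a1 in the totals. The median fold of the AT2 list was 0.128 and 0.164 times, and 0.310 and 0.376 times, above that limit, with Scgb1a1 left out. Sftpb RNA was not absent: 281 of 281 and 63 of 63 club cells had UMIs, as did 99.1% and 97.0% of ciliated-marker cells. The 12 ciliated markers together made up 0.0128% and 0.0107% of club cell UMIs, the 8 basal markers 0.00181% and 0.000577%, and the 10 endothelial markers 0.0131% and 0.00508%. Foxj1, the master regulator of motile cilia, had 24 UMIs in 281 cells and 1 in 63, Krt5, a basal cell keratin, 12 and 0, and Trp63, the basal cell transcription factor, 1 and 1. These 3 were picked from the marker lists after their values were seen. All 8 T and NK cell markers were at 0 in both. Only 1 club cell, in the control library, held a ciliated, basal, endothelial, fibroblast or AT1 (flat alveolar cell) marker list at 1% of its UMIs or more, in its case AT1. In the tumor-bearing library 1 club cell held the neutrophil list at 1.43% of its UMIs.

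The markers that the rule did not use split into genes of nearly all club cells and genes of a few. Cyp2f2, the P450 enzyme that activates naphthalene, had UMIs in 281 of 281 and 63 of 63 club cells. Its level per cell ran from 206 to 12400 CPM (UMIs per 1000000 UMIs of the cell), with a median of 4963 CPM, in the tumor-bearing library, and from 308 to 14609 CPM, with a median of 4726 CPM, in the control library. The 2 ranges overlapped nearly whole. Scgb3a2, a secretoglobin of the lower airways, had UMIs in 273 of 281 and 54 of 63 cells and a median of 5435 and 4460 CPM, up to 54467 and 40460 CPM. Cldn10, a claudin of tight junctions, had UMIs in 256 and 49 cells, with medians of 243 and 192 CPM. With every cell thinned to 2000 UMIs, Scgb3a2 had UMIs in 89.0% (84.7 to 92.4) and 82.5% (70.9 to 91.0) of club cells, against 10.6% and 11.4% of ciliated-marker cells. Cyp2f2 had them in 100% and 95.2% of thinned club cells, and in 89.4% and 90.2% of ciliated-marker cells, so its presence set the 2 kinds of cell little apart. Cldn10 had them in 40.2% and 36.5% of thinned club cells, against 0.885% and 0.758% of ciliated-marker cells.

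Scgb3a1, a second small secretoglobin, Bpifa1 (SPLUNC1, a secreted protein that protects the airway surface) and Ltf (the iron-binding protein lactoferrin) were unlike these. Most club cells had no Scgb3a1 UMI in either library: 127 of 281 and 11 of 63 had at least 1, and the cell with most held 131587 and 53717 CPM. Bpifa1 had UMIs in 143 and 9 cells, up to 158241 and 106313 CPM, and Ltf in 33 and 5 cells, up to 16887 and 6040 CPM. Their summed levels were 2095 and 1568 CPM for Scgb3a1, 2263 and 2311 CPM for Bpifa1 and 140.4 and 129 CPM for Ltf. These sums rested on few cells: without the Bpifa1-rich cells described next, the log2 ratios of tumor-bearing over control went from 0.42 to 4.30 for Scgb3a1, from -0.03 to 2.29 for Bpifa1 and from 0.12 to 1.52 for Ltf. Without club cells with Sftpc at 2% or more they were -0.06, -0.52 and -0.32, and Ltf was at -1.04 with the Scgb1a1 limit at 10%.

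**Figure D2:**
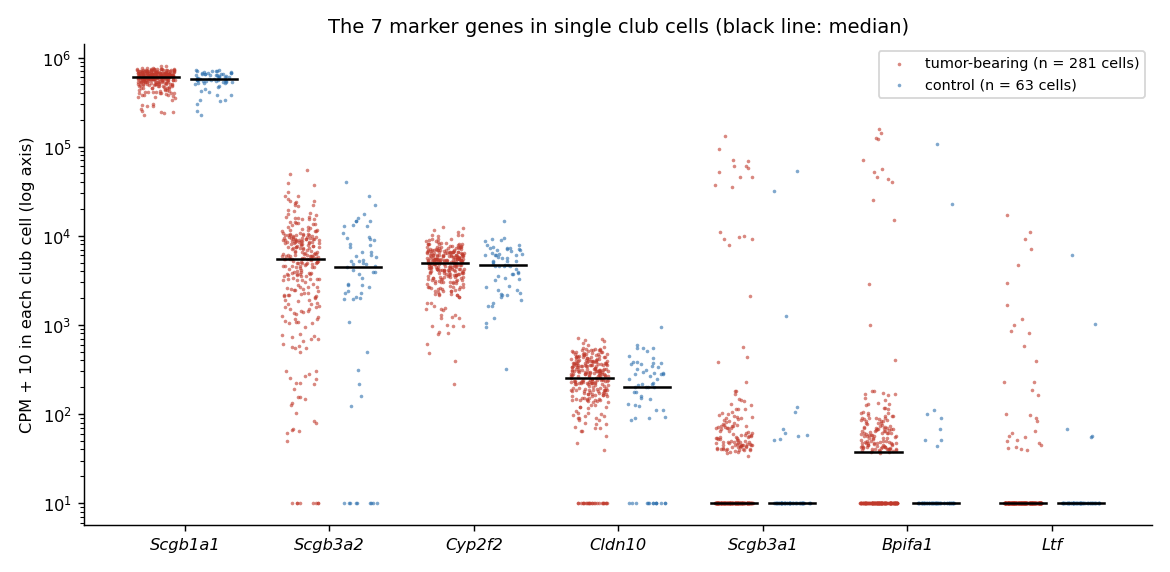
CPM plus 10 (y axis, log axis) of the 7 markers in each club cell, 1 point per cell, with the median as a black line, for 281 tumor-bearing and 63 control cells. Scgb1a1 and Cyp2f2 were present in every cell, whereas Scgb3a1, Bpifa1 and Ltf were high in a few cells and absent or at 1 to a few UMIs in the rest.

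A small set of club cells carried nearly all the Bpifa1. With a limit of 1% of UMIs, chosen after these values were seen, 12 of 281 tumor-bearing (4.27%, 2.23 to 7.34) and 2 of 63 control club cells (3.17%, 0.387 to 11) were rich in Bpifa1. Inside the limit the lowest shares were 1.5% and 2.27%, and below it the highest were 0.284% and 0.0101%. These cells held 98.1% and 99.7% of the Bpifa1 UMIs of club cells, 77.3% and 98.5% of those of Scgb3a1 and 91.6% and 97.3% of those of Ltf. They also held 82.9% and 100% of Reg3g, a secreted lectin that binds bacteria, 92.5% and 100% of Bpifb1, a relative of Bpifa1, and 70.5% and 80.0% of Cyp2a5, a P450 enzyme. Of the goblet cell mucin Muc5b, 7 of the 12 and 2 of the 2 cells had UMIs, against 13 of the other 269 and 0 of the other 61. Muc5ac, the main inducible goblet mucin, had 4 and 1 UMIs over all club cells. Both mucins were picked from the goblet list after their values were seen. All 14 Bpifa1-rich cells also had UMIs of Scgb3a2, Cyp2f2, Hp and Aldh1a1. Scgb1a1 made up a median of 39.1% and 31.5% of their UMIs, against 61.1% and 57.7% in the rest, and their median depth was 13799.5 and 15555 UMIs. A further 4 called cells in each library had Bpifa1 at 1% or more but fell outside the rule, 2 in each with Scgb1a1 between 15% and 20%. In the other club cells Bpifa1 was at 45.0 and 8.39 CPM, below its level in empty droplets of 457 and 53.0 CPM.

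**Figure D3:**
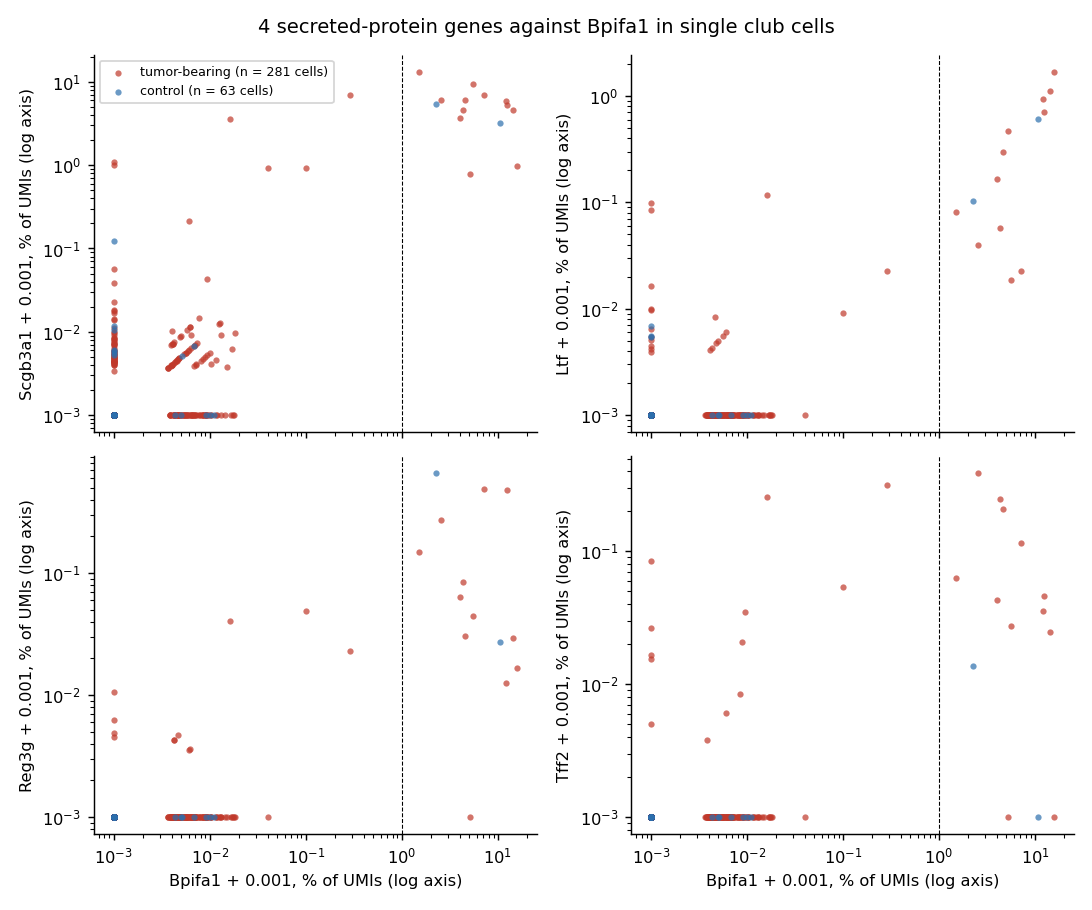
Scgb3a1, Ltf, Reg3g and Tff2 (y axes, % of UMIs plus 0.001, log axes) against Bpifa1 (x axes, same unit) in each club cell, 1 point per cell, with a dashed line at 1% Bpifa1. The 12 tumor-bearing and 2 control cells to the right of the line held most UMIs of Scgb3a1, Ltf and Reg3g. Tumor-bearing cells to its left also had UMIs, 115 of them of Scgb3a1, 21 of Ltf, 12 of Reg3g and 13 of Tff2.

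Over all club cells, the Bpifa1-rich ones included, Cyp2f2 and Aldh1a1, a retinaldehyde dehydrogenase, varied together across single cells, with a Spearman rho of 0.45 over 281 tumor-bearing and 0.51 over 63 control cells. Cyp2f2 and the plasma haemoglobin-binding protein gene Hp gave 0.40 and 0.34. Scgb3a2 and Cyp2f2 gave -0.12 and -0.26. These are descriptions across cells of the same library, which share its depth, and each value is a share of a total that Scgb1a1 dominates.

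Against all other called cells, club cells were read for genes at least 4-fold higher in both libraries, among genes with at least 50 CPM in club cells of both. Of 875 such genes, 26 (2.97%) were at least 4-fold higher, and of 1723 genes at 50 CPM or more in the other cells of both, 142 (8.24%) were at 0.25 times or less. Because Scgb1a1 took most club cell UMIs, the median gene stood at 0.574 and 0.596 times its level in other cells, and at 1.39 and 1.37 times with Scgb1a1 left out of the totals. On that scale 90 genes were at least 4-fold higher and 22 at 0.25 times or less, so that higher genes went from 15.5% to 80.4% of those past either limit. The folds that follow keep Scgb1a1 in the totals and are the smaller of the 2 scales. As the members were chosen by Scgb1a1 and Sftpc, these folds are descriptions with no test.

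The secreted proteins led. Scgb3a2 was at 6950.2 CPM in club cells and 65.0 CPM in other cells of the tumor-bearing library, and at 6814 and 16.3 CPM in the control library, 107-fold (104 to 110.3) and 417-fold (392.3 to 443) higher. Its empty-droplet level was 1028 against 141 CPM, higher in the same library as the level in other cells. Cldn10 was 92.8-fold and 255-fold higher, Scgb3a1 37.2-fold and 71.8-fold, Bpifa1 18-fold and 60.4-fold, and Ltf 8.23-fold and 24.2-fold. The folds of Scgb3a1, Bpifa1 and Ltf rested largely on the few Bpifa1-rich cells and do not describe the typical club cell. Other called cells had Bpifa1 at 125.6 and 38.2 CPM, with 4 Bpifa1-rich cells in each library kept in. In 1 such tumor-bearing cell Bpifa1 made up 22.3% of 24977 UMIs. The remaining club cells, which leave such cells out, are therefore not set against that level. Hp was at 4457 CPM and 4509 CPM in club cells, 13.5-fold (13.3 to 13.8) and 16.4-fold (15.9 to 17.0) above other cells. Cp, the copper-binding ferroxidase ceruloplasmin, was 31.0-fold and 23.6-fold higher. Of the 30 airway secreted protein genes fixed as a list, 15 were at 50 CPM or more in both libraries and 8 of these were at least 4-fold higher.

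Enzymes of xenobiotic metabolism formed the second group. Of 40 such genes, 23 were at 50 CPM or more in club cells of both libraries and 7 were at least 4-fold higher. Cyp2f2 was 35.4-fold (34.6 to 36.2) and 44.2-fold (42.6 to 45.9) higher than in other cells, and at 2141 and 2021 CPM in ciliated-marker cells. Pon1, a lactonase and arylesterase, stood at 287 and 206 CPM in club cells, 22-fold and 19.1-fold higher, and at only 1.59 and 1.63 CPM in ciliated-marker cells. Aldh1a1 was 13.9-fold and 15.3-fold higher than in other cells, but its level of 701 and 711 CPM lay below the 1667 and 1671 CPM of ciliated-marker cells. Gsta3, a glutathione transferase, was 14.5-fold and 8.88-fold, Cyp4b1, another P450, 5.43-fold and 5.73-fold, and Gsto1 7.08-fold and 5.35-fold higher. Gsto1 was higher still in ciliated-marker cells, at 266 and 232 CPM against 163 and 131 CPM in club cells. Some glutathione transferases of the same class, and Aldh1a1 with Aldh1a7, are closely similar genes, and reads could be split between such genes. Cbr2, a carbonyl reductase abundant in lung, reached 14197 and 14670.2 CPM but was only 1.61-fold and 1.5-fold above other cells.

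Of the ion and water transport list 2 of 6 genes at 50 CPM or more were at least 4-fold higher, and of the glutathione and antioxidant list 2 of 12. Scnn1b, a subunit of the epithelial sodium channel, was at 107 and 109 CPM, 8.23-fold and 6.90-fold above other cells, with no UMI in ciliated-marker cells, while Scnn1a was at 0.781 and 0.762 times, and at 1.90 and 1.75 times with Scgb1a1 left out of the totals. Slc16a11, a monocarboxylate transporter family member, was 15.3-fold and 12-fold higher. Prdx6, a peroxiredoxin with phospholipase activity, reached 3443 and 4140.5 CPM, 4.71-fold and 4.59-fold higher, near its 3250 and 3641 CPM in ciliated-marker cells. Alas1, the first enzyme of haem synthesis, was 4.58-fold and 5.43-fold higher than in other cells, but its 634 and 783 CPM lay below the 950 and 1350 CPM of ciliated-marker cells. The remaining genes named by rank, 8430408G22Rik, Tspan1, Pgrmc1, 5330417C22Rik, Gstm1, Selenbp1, Ces1d and Aldh1a7, ranged from 2.98-fold to 4.87-fold. Tspan1, Pgrmc1, Gstm1 and Ces1d were higher in ciliated-marker cells than in club cells of both libraries.

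**Figure D4:**
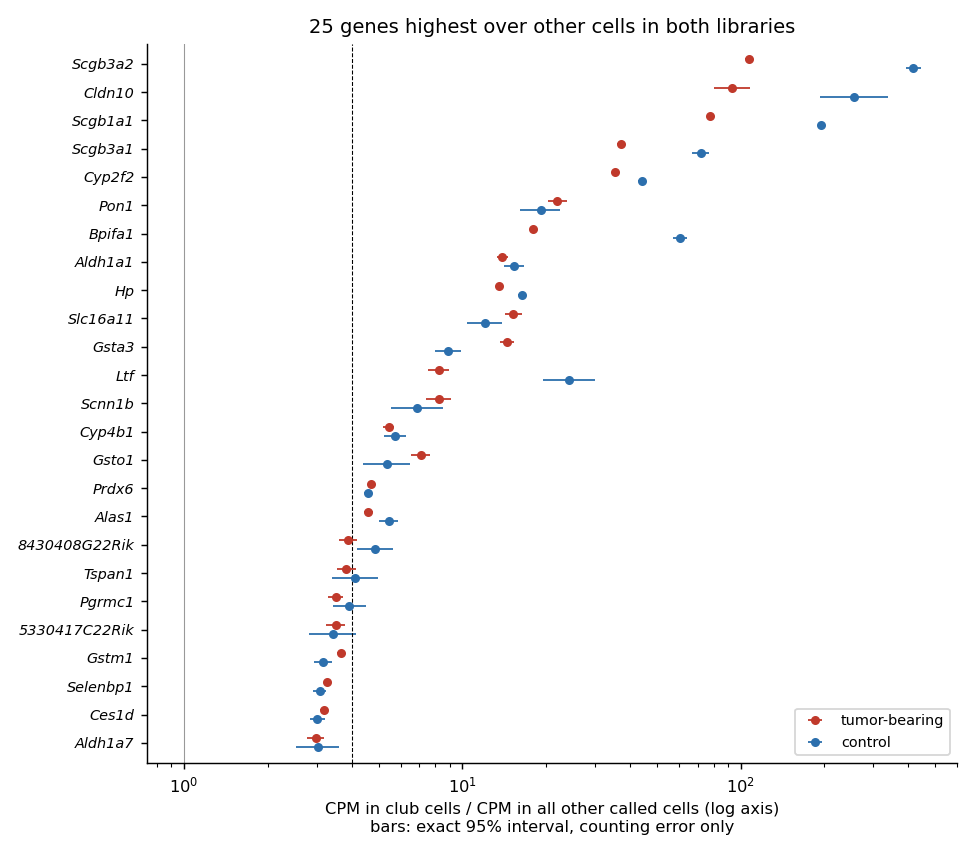
CPM in club cells over CPM in all other called cells (x axis, log axis) for the 25 genes with the largest fold in both libraries, with exact 95% intervals for counting error and a dashed line at 4-fold. Scgb3a2, Cldn10 and Scgb1a1 lie farthest right, and the secretoglobins, Cldn10 and Bpifa1 have larger folds in the control library, where other cells and empty droplets held less of their RNA.

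MHC class II genes were lower in club cells than in all other called cells together, most of which were in the AT2 range. Of the 6 genes of this list at 50 CPM or more in other cells, which serve to present peptides to CD4 T cells, 6 were at 0.25 times or less. Cd74, their invariant chain, was at 555 and 714 CPM in club cells, 0.0914 and 0.107 times the level in other cells, and 12.7% of the empty-droplet level in the control library. With Scgb1a1 left out of the totals Cd74 was at 0.222 and 0.246 times. For MHC class I the medians were 0.365 and 0.359 times with Scgb1a1 in the totals and 0.887 and 0.823 times without it, so the low class I value rested largely on the totals. Nkx2-1, the lung lineage transcription factor, was at 56.4 and 60.1 CPM, 0.401 and 0.386 times its level in other cells, and 0.973 and 0.884 times with Scgb1a1 left out of the totals. Sox2, which marks the airway lineage, was at 25.6 and 30.03 CPM, 5.39-fold and 8.70-fold higher. Its level was under the minimum of 50 CPM set for the folds above. Sox2 and Nkx2-1 were picked from the list of airway transcription factors and Notch genes after their values were seen. Of the 5 genes of that list at 50 CPM or more in club cells of both libraries, 0 were at least 4-fold higher. The list median was 0.552 and 0.547 times, and 1.34 and 1.25 times with Scgb1a1 left out of the totals.

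The summed club cells of the 2 libraries were compared gene by gene. A gene was called where it had at least 50 CPM in either library, differed at least 2-fold and had Poisson intervals that did not overlap. Of 1043 genes at 50 CPM or more, 6 (0.575%) were higher and 6 (0.575%) lower in the tumor-bearing library. With Scgb1a1 left out of the totals, which brings more genes to 50 CPM, 28 were higher and 34 lower, and without club cells with Sftpc at 2% or more 8 were higher and 13 lower. The median log2 ratio (tumor-bearing over control, 1 CPM added to each) of the 1043 genes was -0.12, and 95% of them lay between -0.63 and 0.49, with 293 above and 750 below 0. With ratios taken relative to that median, 8 genes were higher and 5 lower. None of the 7 markers was among those called. Scgb1a1 was at 591458 CPM against 564880.0 CPM in control club cells, a fold of 1.05, Scgb3a2 had a fold of 1.02 (0.993 to 1.05), Cyp2f2 1.01 (0.977 to 1.04) and Cldn10 1.19 (1.02 to 1.38).

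**Figure D5:**
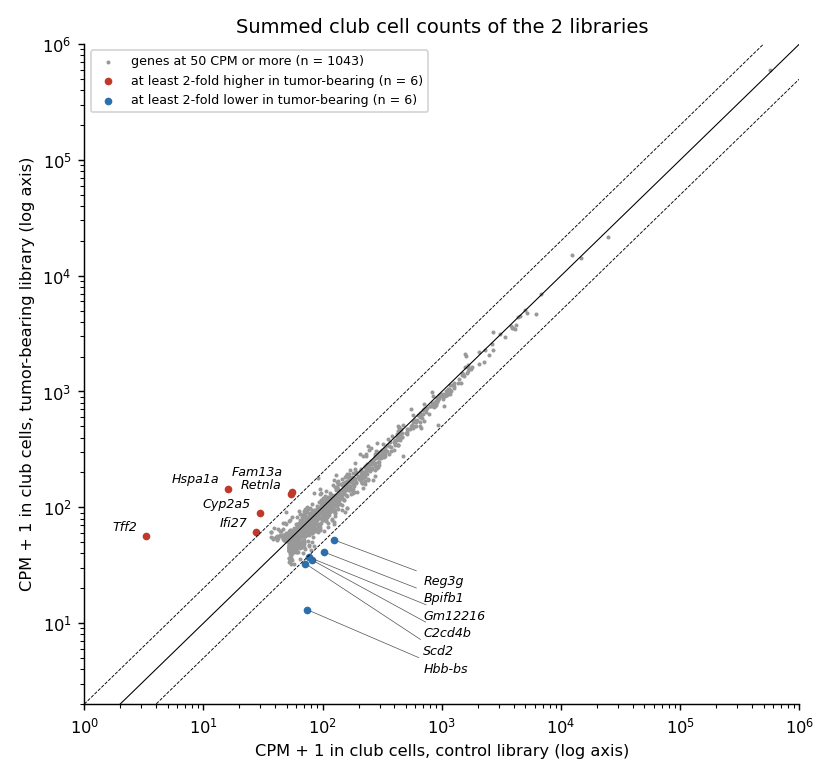
CPM plus 1 in the summed club cells of the tumor-bearing (y axis) against the control library (x axis), both log axes, 1 point per gene for 1043 genes, with dashed lines at 2-fold. The points lie along the diagonal, and 6 genes above and 6 below it met the 2-fold rule with separate intervals.

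Hspa1a, the stress-inducible heat shock protein 70, was higher in many cells of the tumor-bearing library. It had 900 UMIs (143 CPM, 134 to 153) in the tumor-bearing and 13 UMIs (15 CPM, 8.0 to 25.7) in the control club cells, a fold of 9.54 (5.55 to 18). It had UMIs in 135 of 281 cells, with a highest level of 4958 CPM, against 12 of 63 cells, with a highest level of 147 CPM. With cells thinned to 2000 UMIs the shares were 18.1% (13.8 to 23.2) and 3.17% (0.387 to 11), and 15.9% and 8.33% of ciliated-marker cells. The 5 cells with most held 18.2% of the tumor-bearing UMIs. In other cells Hspa1a was 3.5-fold higher in the same direction, at 59.7 and 17.1 CPM, and in empty droplets it was at 122 and 31.0 CPM. Its neighbour and near-identical copy Hspa1b, named after its values were seen, had 212 and 2 UMIs, a ratio of 14.6 (4.0 to 121), and reads could be split between the copies. Of the 9 heat shock genes at 50 CPM or more, 7 lay above and 2 below a log2 ratio of 0, with a median of 0.18, against 293 of 1043 above 0 and a median of -0.12 over all genes. Hsp90aa1 had a fold of 1.47 (1.21 to 1.80), Hspb1 1.48 (1.12 to 1.99) and Dnajb1 1.36 (1.03 to 1.83), whereas Hspa8, the constitutive form, picked after its values were seen, was at 344 and 426 CPM. Only Hspa1a of the 9 was past the 2-fold rule. The 16 immediate early genes at 50 CPM or more, which respond within minutes to dissociation, had a median of -0.19 in club cells, with 6 above 0, and of 0.29 in other cells. How the digestion or the sort bore on this difference was not tested.

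Fam13a and Retnla were also higher in the summed counts. Fam13a, a gene linked to airway disease by genetics, had 838 and 47 UMIs, 133 and 54.3 CPM, a fold of 2.46 (1.83 to 3.37). It had UMIs in 185 of 281 and 20 of 63 cells, and in 19.2% (14.8 to 24.3) and 9.52% (3.58 to 19.6) of cells after thinning, with intervals that overlapped. Its fold in other cells was 1.31. Retnla, a secreted resistin-like protein, had 810 and 46 UMIs, 129 and 53.1 CPM, a fold of 2.43 (1.80 to 3.34). Of the tumor-bearing Retnla UMIs, 48.4% came from 1 cell, and the 5 cells with most held 65.1%. After thinning, 8.90% (5.84 to 12.9) and 6.35% (1.76 to 15.5) of cells had Retnla UMIs. Ifi27, an interferon-inducible gene, had a fold of 2.25, but its tumor-bearing level of 59.7 CPM was 30.1% of that in empty droplets.

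The calls of 4 other genes involved the Bpifa1-rich cells. Tff2, a trefoil peptide of mucus-secreting cells, had 348 UMIs in 23 tumor-bearing cells and 2 UMIs in 1 control cell, a ratio of 24.0 (6.59 to 199). Outside the Bpifa1-rich cells it had 185 and 0 UMIs. Reg3g was at 51.3 and 124 CPM, a fold of 0.415 (0.332 to 0.521), and 1 control cell held 96.3% of the 107 control UMIs. Leaving out the 1 control club cell with an AT1 list at 1% or more turned its log2 ratio from -1.25 to 3.20, and leaving out all Bpifa1-rich cells left 55 and 0 UMIs. Bpifb1 was at 40.1 and 102 CPM, a fold of 0.395 (0.308 to 0.509), and 1 control cell held 84.1% of its 88 UMIs. Outside the Bpifa1-rich cells it had 19 and 0 UMIs. Cyp2a5, at 88.0 and 28.9 CPM, had a fold of 3.05 (2.04 to 4.75), and 4.46 without the Bpifa1-rich cells, on 163 and 5 UMIs. With the Scgb1a1 limit at 10%, which lets in further Bpifa1-rich cells, its log2 ratio was -0.26. Cyp2a5 shares near-identical sequence with its neighbour Cyp2a4, and its counts are uncertain for that reason.

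The other genes lower in the tumor-bearing library had low levels. C2cd4b was at 34.2 and 79.7 CPM, a fold of 0.429 (0.326 to 0.572), and Gm12216, an unnamed transcript, at 36.0 and 76.2 CPM, a fold of 0.472 (0.357 to 0.631). Their folds in other cells were 1.03 and 1.38, and their control levels were 66.3% and 72.2% of those in empty droplets. Hbb-bs, a globin of red cells, at 12.1 and 72.8 CPM, and Scd2, a fatty acid desaturase, at 31.7 and 70.5 CPM, were at 14.1% and 18.8% of the empty-droplet level in the control library. Both were lower in other cells of the tumor-bearing library too, with folds of 0.298 and 0.517.

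At 1.5-fold, a limit added after the data were seen, 16 genes (1.53%) were higher and 36 (3.45%) lower. Among the higher were Dbp, a transcription factor under clock control, at 89.6 and 48.5 CPM (1.85, 1.35 to 2.59), Phlda1, and Ech1 and Acadl, enzymes of fatty acid oxidation, at 1.69 (1.17 to 2.53) and 1.53 (1.09 to 2.22). In other cells Dbp was at 2.00, Ech1 at 1.47 and Acadl at 1.83. Of 11 fatty acid oxidation genes at 50 CPM or more, 8 lay above 0, with a median log2 ratio of 0.10. Over all 1043 genes 293 lay above 0, and in other cells the median of this list was 0.27. Among the lower were Hes1, an effector of Notch signalling, at 278 and 468 CPM (0.594, 0.533 to 0.664), with UMIs in 205 of 281 and 55 of 63 cells. Icam1, an adhesion molecule, was at 0.605 (0.483 to 0.764), Egr1, an immediate early gene, at 0.654 (0.566 to 0.759) and Cebpa, a transcription factor, at 0.663 (0.519 to 0.856). Several of these did not reach the level of empty droplets even at their higher value, Dbp at 40.1% of it, Ech1 at 45.2%, Icam1 at 42.5%, Egr1 at 43.7% and Cebpa at 43.2%, whereas Hes1 was at 295% of its own. Ager, an AT1 gene, was at 515 and 922 CPM, also 42.5% of the control empty-droplet level.

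Lists of genes were read against all 1043 genes, of which 293 lay above 0. Of the 26 xenobiotic genes at 50 CPM or more, 14 lay above and 12 below 0, with a median log2 ratio of 0.02, and Cyp2a5 alone was called. Of the 17 airway secreted protein genes measured, 12 lay above 0, with 2 called higher and 2 lower. All 5 MHC class I genes lay below 0, with a median of -0.32, as did all 4 class II genes, with a median of -0.28, and none was called. In other cells the class I and class II medians were -0.27 and -0.15. Of the 51 oxidative phosphorylation genes 14 lay above 0, with a median of -0.08, and of the 21 genes of the endoplasmic reticulum and secretory machinery 6 lay above 0, with a median of -0.12. Neither list had a gene called. Under the alternatives tried, the sign of the median turned in 3 settings for the xenobiotic list, in 2 for each of these last lists, in 1 for the secreted proteins and in 0 for either MHC list. Of the acute phase and complement list 4 genes were measured, Hp with a fold of 0.988, Lcn2 with 1.37, Cp with 1.46 (1.08 to 2.03) and C3 with 1.51 (1.04 to 2.25), and none was past the 2-fold rule.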

How the data were processed

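RNA of sorted lung cells was measured in 2 droplet libraries, 1 per group. Values are UMI counts as the authors deposited them, for every barcode and before any choice of cells, made with Cell Ranger 2.1.0 on mm10 per the labels and the series design text. R 3.5.3 and Seurat are also named in the submitters' processing notes, with no stated role. The members and gene lists were chosen with earlier results of these data known. Called cells needed at least 2000 UMIs, at least 500 genes and at most 20% mitochondrial UMIs. Counts were summed over club cells and divided by their total (CPM). Shares have Clopper-Pearson intervals, CPM Poisson intervals and folds conditional binomial intervals, all exact at 95%. PCR copies were already collapsed by UMI, and the intervals cover counting error only. With 1 library per group no test and no p-value was computed. Log2 ratios had 1 CPM added.

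Named genes were the 7 markers, the 25 genes with the largest smaller-of-both fold over other cells at 100 CPM or more, up to 12 per direction past the 2-fold rule and at 0.5 times or more of the empty-droplet level, and up to 4 per gene list by size of ratio. Ifi27, Hbb-bs and Scd2 fell under that level and were named after their values were seen. Scrublet marked 0 and 1 doublets automatically, too few to have worked, so the highest scores were removed instead, as an alternative. Clusters of club cells were not used. Sequences came from RefSeq start regions, with 6 of 7 genes looked for matched. The summing and calling steps were tested on simulated data. Python 3.11.15, numpy 2.4.6, scipy 1.17.1, pandas 2.3.3 and scanpy 1.11.5 were used.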

Additional observations from a re-analysis of the deposited data

Results flagged for a closer look

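Reg3g went opposite ways in club cells and in other cells: its ratio of tumor-bearing over control was 0.415 in club cells and 3.87 in other called cells (4.8 and 1.24 CPM). This difference was not tested, and 1 control club cell held 96.3% of the control club UMIs.

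Empty droplets, which are in no comparison between cells, held Scgb1a1 at 11.4% of UMIs in the tumor-bearing library, against 1.4% in the control library. Club cells held 8.33% and 1.09% of the UMIs of called cells.

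Barcodes with 500 or more UMIs but under the 2000 that were the limit for a called cell, met the Scgb1a1 and Sftpc limits in 39 of 1304 cases (2.99%, 2.14 to 4.07) in the tumor-bearing and 22 of 2502 (0.879%, 0.552 to 1.33) in the control library.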

How the results depend on the processing

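The ratio of club cell shares ranged from 5.13 to 6.21 under the other cell filters. Without club cells with Sftpc at 2% or more, an alternative chosen after seeing the data, the shares were 2.93% and 0.328%, the ratio 8.93 and the genes lower 13. With Sftpc under 5%, 11 genes were lower, and with free RNA subtracted, 11. With CPM computed without Scgb1a1, 28 genes were higher and 34 lower between libraries, and 90 were higher than in other cells. A minimum of 20 CPM gave 21 higher, 47 lower and 43 over other cells, and no minimum gave 53 higher and 96 lower. The 1.5-fold rule, added after seeing the data, gave 16 and 36. Log2 ratios that changed sign were Cyp2a5 at -0.26 with Scgb1a1 at 10% or more, Bpifb1 at 1.17 with Scgb1a1 at 30% or more, Reg3g at 3.20 without the 1 control club cell with AT1 markers at 1%, and Bpifb1 at 2.04 and Reg3g at 3.33 without the Bpifa1-rich cells (an alternative chosen after seeing the data). The cause was not tested, apart from the fewer cells and genes these settings leave. These were 5 readings, each of 1 gene past the rule under 1 setting. Of the other such readings, 150 moved little and 13 moved further. The 63 control club cells and their 865838 UMIs limit the precision. Scnn1b and Ltf had no fold against ciliated-marker cells, where both were at 0. No paired analysis was possible because the groups share fewer than 2 replicate numbers.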
